A study of Mus musculus with 6 samples.

Results

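The MHC class II presentation genes were *H2-Aa*, *H2-Ab1*, *H2-Eb1*, *H2-DMa*, *H2-DMb1*, *Cd74* and *Ciita*, taken by their gene names from the deposited RNA-seq table, which gave 7 of its 54532 genes. All 7 had enough reads to be among the 14169 genes tested. RNA was sequenced from GFP+ leukemia cells sorted from mouse bone marrow, with 3 *WT Phf6,RE9a* libraries, numbered 1, 2 and 3 as replicates, and 3 *VC Phf6,RE9a* libraries, numbered 11, 12 and 13. In both groups the leukemia was driven by RUNX1-ETO9a (RE9a), a truncated form of the RUNX1-ETO fusion protein, which was brought in with GFP by a retrovirus into fetal liver cells that lack lineage markers, and the GFP+ cells were passed through male recipient mice. The *WT Phf6,RE9a* donors were *Phf6* fl/y males, with an intact floxed allele, and the *VC Phf6,RE9a* donors were *Vav1-Cre;Phf6* fl/y males, in which Cre under the Vav1 promoter removes *Phf6* in blood cells. PHF6 is an X-linked chromatin protein, and the comparison asks how its loss changed the RNA of leukemia cells. Nothing in the labels states that libraries of a group came from different mice or different leukemias, so the p-values measure only the spread between these libraries, which may be technical.

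MHC class II molecules are pairs of an alpha and a beta chain at the cell surface that show peptides from the endosome to CD4+ T cells. *H2-Aa* and *H2-Ab1* encode the chains of the I-A molecule and *H2-Eb1* the beta chain of I-E, *Cd74* encodes the invariant chain that fills the groove and guides the new molecule to the endosome, and *H2-DMa* and *H2-DMb1* encode the editor that exchanges the remnant of the invariant chain for peptide. *Ciita* encodes the coactivator on which class II transcription depends, and its level is known to be high in dendritic cells and B cells and inducible by interferon-gamma in many others.

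None of the 7 genes passed the test between the groups, against 44.2% of all genes tested that did, 21.5% higher and 22.7% lower in *VC Phf6,RE9a* cells. The I-A and I-E chains had mean levels between 3.45 and 4.21 counts-per-million (CPM) in *WT Phf6,RE9a* cells, against 5.72 to 8.33 CPM in *VC Phf6,RE9a* cells, with libraries of 1 group that differed by up to 4.15 times. *Cd74* was read at a higher level per length than any of the other 6, and *Ciita* was read at 11 to 31 counts in a library. At an unadjusted p under 0.05, edgeR also passed 0 of the 7, against 7386 of the 14169 genes tested. The lowest edgeR p of the 7 was 0.0557, for *H2-Ab1*. DESeq2 called 0 as well, against 3082 higher and 3363 lower over all genes tested. So did limma on log2(FPKM + 1), against 2945 higher and 3115 lower. Each had 1 of the 7 at an unadjusted p under 0.05, a threshold counted over all genes for edgeR alone. In RNA from many cells, fewer cells of a type and less RNA per cell cannot be told apart.

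The labels were checked against *Phf6* (chrX:52912266-52956943). It had 1044, 827 and 1142 counts in the *WT Phf6,RE9a* libraries and 388, 314 and 331 counts in the *VC Phf6,RE9a* libraries. The groups did not overlap, and *Phf6* fell from 64.3 ± 7.15 CPM to 20.3 ± 2.37 CPM (SD, n = 3 each), a log2 fold change of -1.66 with a standard error of 0.13 (edgeR adjusted p = 9.32e-05). Counts over the whole gene do not separate the floxed exons from the rest. Total counts per library were between 15675358 and 16817994, so that a gene with 0 counts could have had up to 3 counts, or 0.175 to 0.204 CPM. Of the 10 hematopoietic, myeloid and progenitor markers, each was read in every library, 5 rose and 3 fell, beside 44.2% of all genes called. Among them *Kit*, the stem cell factor receptor, fell from 2420 ± 471 CPM to 273 ± 70.1 CPM (SD, n = 3 each; adjusted p = 7.75e-05 from edgeR).

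Class II promoters are known to carry an X box, bound by the RFX complex, followed by a Y box, bound by NF-Y, on which CIITA assembles. In RefSeq promoter sequences (GRCm38.p6), the 250 bases before a gene's start were searched on both strands for the Y box ATTGG and the X box. The X box was here the letters AGCAACTGATG with any base at positions 3 and 7. The 130 bases from position -140 to position -11 are shown for 2 members, *H2-Aa* and *H2-Eb1*, and for *H2-Ob* and *H2-Eb2*. These last 2 genes lie beside them on chromosome 17 and differed widely in level. Capitals mark the motif matches, and positions are counted from the RefSeq start.
H2-Aa, chr17:34287834-34287963, minus strand: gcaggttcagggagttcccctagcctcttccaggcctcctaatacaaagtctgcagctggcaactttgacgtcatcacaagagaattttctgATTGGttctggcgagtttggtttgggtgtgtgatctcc
H2-Eb1, chr17:34305727-34305856, plus strand: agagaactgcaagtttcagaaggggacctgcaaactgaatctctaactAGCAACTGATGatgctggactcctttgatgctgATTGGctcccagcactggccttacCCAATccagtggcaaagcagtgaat
H2-Ob, chr17:34238765-34238894, plus strand: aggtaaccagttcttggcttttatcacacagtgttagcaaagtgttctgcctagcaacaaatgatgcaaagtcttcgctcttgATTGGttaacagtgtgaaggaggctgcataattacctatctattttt
H2-Eb2, chr17:34325535-34325664, plus strand: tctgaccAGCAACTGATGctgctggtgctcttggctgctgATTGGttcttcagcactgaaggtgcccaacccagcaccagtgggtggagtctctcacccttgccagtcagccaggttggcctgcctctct
In the *H2-Eb1* promoter the X box started at -92 and the Y box at -59, which is 33 bases further on, and CCAAT, the Y box on the other strand, started at -35. The *H2-Eb2* promoter held the same X box, at -133, with the Y box at -100, also 33 bases on. The *H2-DMb1* promoter held the X box AGTAACTGATG at -95 and the Y box at -61, at a spacing of 34 bases. No X box of these letters was found in the windows of *H2-Aa* and *H2-Ob*, which had a Y box at -48 and -57.

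Of 32851 promoters of the same length, 11120 (33.8%) held the Y box and 85 (0.259%) held the X box. An X box with a Y box starting 30 to 36 bases after it was found in 3 promoters (0.00913%), those of *H2-Eb1*, *H2-DMb1* and *H2-Eb2*. The promoters of *H2-Ab1*, *Cd74* and *Ciita* were not searched here. This range of spacing was chosen after the spacings were seen. The 3 genes had very different levels, since *H2-Eb1* had 22 to 123 counts in a library, *H2-DMb1* had 23 to 51 and *H2-Eb2* had 0 to 3. A match is a description of the sequence, and binding was not measured in these libraries. The RefSeq starts listed for *H2-DMa* lie kilobases before the deposited start of the gene and are not shown.

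*H2-Aa* (chr17:34282744-34287827, minus strand), the I-A alpha chain, had 28, 41 and 108 counts in the *WT Phf6,RE9a* libraries and 165, 110 and 83 counts in the *VC Phf6,RE9a* libraries. Replicate 3 of *WT Phf6,RE9a* lay above replicates 12 and 13 of *VC Phf6,RE9a*, so the groups overlapped. Its level was 3.71 ± 2.49 CPM and 7.03 ± 2.46 CPM (SD, n = 3 each), a log2 fold change of 0.91 with a standard error of 0.48 and a 95% interval from -0.21 to 2.04 (edgeR adjusted p = 0.163). *H2-Ab1* (chr17:34263209-34269418, plus strand), the I-A beta chain, had 29, 70 and 99 counts against 200, 113 and 111 counts. The highest *WT Phf6,RE9a* library, at 5.99 CPM, lay below the lowest *VC Phf6,RE9a* library, at 6.58 CPM, so *H2-Ab1* was the 1 gene of the 7 whose groups did not overlap. The groups did not overlap for 57.3% of all genes tested, 28.9% with *VC Phf6,RE9a* higher. *H2-Ab1* had 4.21 ± 2.11 CPM and 8.33 ± 3.01 CPM (SD, n = 3 each), with a log2 fold change of 0.98, a standard error of 0.44 and a 95% interval from -0.03 to 1.99 (edgeR adjusted p = 0.105).

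*H2-Eb1* (chr17:34305877-34316199, plus strand), the I-E beta chain, had 22, 44 and 98 counts against 123, 84 and 84 counts. Replicate 3 of *WT Phf6,RE9a* again lay above replicates 12 and 13 of *VC Phf6,RE9a*, at 5.93 CPM against 4.89 and 4.99 CPM. The level was 3.45 ± 2.29 CPM and 5.72 ± 1.34 CPM (SD, n = 3 each), a log2 fold change of 0.72 with a standard error of 0.47 (95% interval -0.37 to 1.82, edgeR adjusted p = 0.253). The alpha chain that pairs with it is represented in the table by *H2-Ea-ps*, which is annotated there as an unprocessed pseudogene. *H2-Ea-ps* had 0 counts in all 6 libraries, at a limit of 0.204 CPM or less in each.

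**Figure D1:**
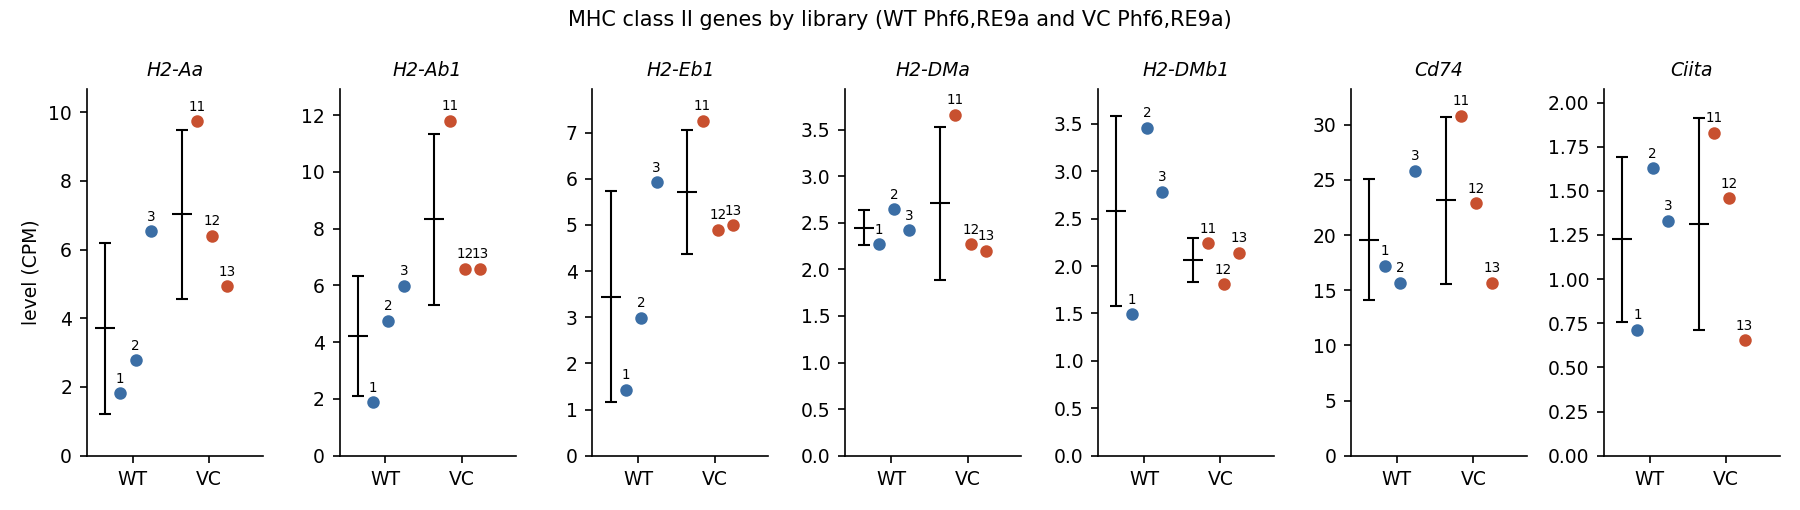
Each panel plots the level of 1 class II gene in CPM by library, blue for *WT Phf6,RE9a* and red for *VC Phf6,RE9a*, with the replicate number above each point and the mean and SD of the 3 libraries as a bar to the left. For the 3 chains, replicate 1 was lowest and replicate 3 highest among the *WT Phf6,RE9a* libraries, and the groups separate for *H2-Ab1* alone.

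The 3 chain genes shared their order among the *WT Phf6,RE9a* libraries. Replicate 1 was lowest and replicate 3 highest for each, with highest-to-lowest ratios of 3.60 for *H2-Aa*, 3.18 for *H2-Ab1* and 4.15 for *H2-Eb1*. Among the *VC Phf6,RE9a* libraries replicate 11 was highest for each, and the ratios were 1.98, 1.79 and 1.48. Summed over the 3 chains, the *WT Phf6,RE9a* libraries had 5.13, 10.5 and 18.5 CPM and the *VC Phf6,RE9a* libraries 28.8, 17.9 and 16.5 CPM, so replicate 3 of *WT Phf6,RE9a* stood above 2 of the 3 *VC Phf6,RE9a* libraries. Without replicate 3 of *WT Phf6,RE9a*, *H2-Aa* passed the test with a log2 fold change of 1.60 (edgeR adjusted p = 0.0183) and *H2-Eb1* with 1.36 (edgeR adjusted p = 0.0339), while *H2-Ab1* did not, at 1.32. Over all 12 alternative settings the lowest adjusted p of *H2-Ab1* was 0.0638 and its log2 fold change was between 0.62 and 1.32. In the pattern over the 6 libraries, *H2-Aa* and *H2-Eb1* were the closest pair of the 7 genes, with a root mean square difference of 0.20 between their log2 CPM after centring, followed by *H2-Ab1* and *H2-Eb1* at 0.22 and *H2-Aa* with *H2-Ab1* at 0.29.

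*Cd74* (chr18:60803848-60812646, plus strand), the invariant chain, had 265, 231 and 427 counts in the *WT Phf6,RE9a* libraries and 522, 393 and 264 counts in the *VC Phf6,RE9a* libraries. The groups overlapped, with the lowest library of each group near the same level. Only replicate 11 of *VC Phf6,RE9a*, at 30.8 CPM, lay above the highest *WT Phf6,RE9a* library, replicate 3 at 25.8 CPM. Its level was 19.6 ± 5.48 CPM and 23.1 ± 7.57 CPM (SD, n = 3 each), and the log2 fold change was 0.24 with a standard error of 0.28 (95% interval -0.41 to 0.89, edgeR adjusted p = 0.521). This interval leaves out a 2-fold difference of *Cd74* in either direction in the mean of these libraries, but not the smaller differences within it.

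The peptide editor was read at lower counts. *H2-DMa* (chr17:34135182-34139101, plus strand), its alpha chain, had 35, 39 and 40 counts against 62, 39 and 37 counts. Only replicate 11 of *VC Phf6,RE9a* lay above the narrow *WT Phf6,RE9a* range, and the log2 fold change was 0.15 with a standard error of 0.30 (95% interval -0.54 to 0.84, edgeR adjusted p = 0.719). *H2-DMb1* (chr17:34153072-34160230, plus strand), a beta chain of the editor, had 23, 51 and 46 counts against 38, 31 and 36 counts. All 3 *VC Phf6,RE9a* values lay inside the *WT Phf6,RE9a* range, and the log2 fold change was -0.32 with a standard error of 0.35 (95% interval -1.14 to 0.50, edgeR adjusted p = 0.496). Mean levels were 2.45 ± 0.188 CPM and 2.71 ± 0.824 CPM for *H2-DMa*, and 2.58 ± 0.999 CPM and 2.06 ± 0.228 CPM for *H2-DMb1* (SD, n = 3 each). Of the 1529 windows of 150 bases in the *H2-DMb1* transcripts, 72 (4.71%) also occur in those of *H2-DMb2*, and reads from these could not be placed between the copies by sequence.

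*Ciita* (chr16:10480059-10528418, plus strand), the coactivator, had 11, 24 and 22 counts in the *WT Phf6,RE9a* libraries and 31, 25 and 11 counts in the *VC Phf6,RE9a* libraries. Each group held a library with 11 counts, whose exact 95% Poisson interval was 5.49 to 19.7 counts. Such intervals and limits hold counting error alone, because the reads carry no molecular identifiers and need not come from separate molecules. The level was 1.22 ± 0.466 CPM and 1.31 ± 0.601 CPM (SD, n = 3 each), a log2 fold change of 0.10 with a standard error of 0.47 and a 95% interval from -0.99 to 1.20 (edgeR adjusted p = 0.882). A 2-fold difference in either direction was therefore at the edge of what these libraries could show for *Ciita*. *Ciita* overlaps *Dexi* on the opposite strand, which had 121 to 207 counts in a library, and the sources used here do not give the strand of counting, so that reads of the shared stretch cannot be told apart.

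**Figure D2:**
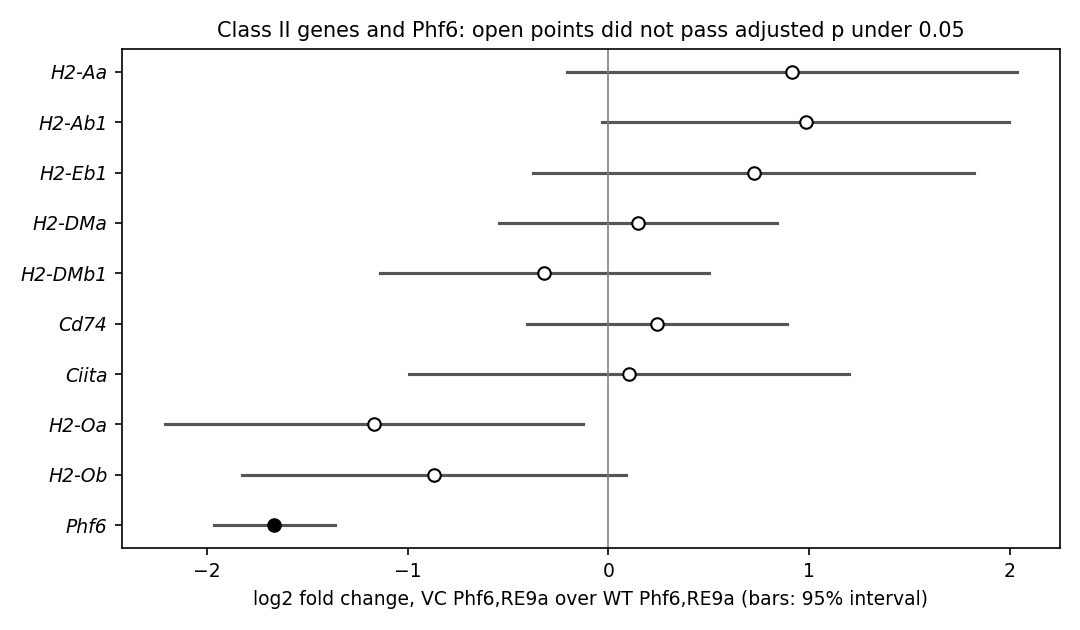
Points give the log2 fold change between the groups (x axis, positive where *VC Phf6,RE9a* is higher) with its 95% interval for the 7 class II genes, the other chains tested, *H2-Oa* and *H2-Ob*, and *Phf6*. Filled points passed an adjusted p under 0.05 in edgeR, which *Phf6* alone did, and the intervals of the 7 class II genes all include 0.

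Levels of different genes were compared per length, in FPKM (fragments per kilobase of gene, scaled to library size as CPM is). *Cd74* stood highest at 13.8 ± 3.81 FPKM in *WT Phf6,RE9a* and 16.2 ± 5.33 FPKM in *VC Phf6,RE9a* cells (SD, n = 3 each), at percentile 72.8 of the genes tested. In *WT Phf6,RE9a* cells it was followed by *H2-Eb1* at 2.89 ± 1.90 FPKM, *H2-Ab1* at 2.55 ± 1.27 FPKM, *H2-Aa* at 1.96 ± 1.31 FPKM, *H2-DMb1* at 1.72 ± 0.663 FPKM and *H2-DMa* at 1.48 ± 0.109 FPKM, neighbours that differed by less than the larger of their SDs. The order in *VC Phf6,RE9a* cells was *H2-Ab1* at 5.02 ± 1.82 FPKM, *H2-Eb1* at 4.77 ± 1.12 FPKM, *H2-Aa* at 3.70 ± 1.30 FPKM, *H2-DMa* at 1.63 ± 0.496 FPKM and *H2-DMb1* at 1.37 ± 0.147 FPKM, and here the 3 chains lay apart from the editor in their libraries. *Ciita* was lowest in both groups, at 0.127 ± 0.0481 FPKM and 0.136 ± 0.0626 FPKM, percentile 1.27 of the genes tested. Per length, invariant chain RNA outnumbered that of *H2-Aa*, *H2-Ab1* and *H2-Eb1* in each library.

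Ratios within a library do not depend on the scaling between libraries, and 7 of them were compared by an exact 2-sided permutation test, in which 3 libraries against 3 cannot reach a p below 0.1. The ratio of *H2-Aa* to *Cd74* in counts per kb was 0.0795, 0.134 and 0.190 in the *WT Phf6,RE9a* libraries and 0.238, 0.211 and 0.237 in the *VC Phf6,RE9a* libraries. It was higher in each *VC Phf6,RE9a* library than in any *WT Phf6,RE9a* library, with a log2 difference of 0.85 (exact p = 0.1, adjusted over the 7 ratios 0.467). *H2-Ab1* over *Cd74* was 0.185 ± 0.0843 and 0.313 ± 0.0591 (exact p = 0.2), and *H2-Eb1* over *Cd74* was 0.200 ± 0.0903 and 0.305 ± 0.0656 (SD, n = 3 each; exact p = 0.2), and in both the groups overlapped. *H2-Aa* over *H2-Ab1*, the chains of I-A, was 0.769 ± 0.230 and 0.741 ± 0.1002, a log2 difference of -0.013 (exact p = 1). For the editor, *H2-DMa* over *H2-DMb1* was 0.952 ± 0.371 and 1.18 ± 0.276 (exact p = 0.4), *H2-DMa* over *Cd74* was 0.113 ± 0.0323 and 0.103 ± 0.0176 (exact p = 0.8), and *H2-DMb1* over *Cd74* was 0.131 ± 0.0684 and 0.0912 ± 0.0333 (SD, n = 3 each; exact p = 0.5).

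The H2-O chains had lower values in *VC Phf6,RE9a* cells, where the I-A and I-E chains had higher ones. *H2-Oa* (chr17:34092340-34095234), the alpha chain of the H2-O inhibitor of the editor, had 141, 145 and 128 counts in the *WT Phf6,RE9a* libraries and 52, 31 and 118 counts in the *VC Phf6,RE9a* libraries. All 3 *VC Phf6,RE9a* values lay below the *WT Phf6,RE9a* values, as for 28.4% of all genes tested, with replicate 13 close to them, and the level was 8.91 ± 1.07 CPM and 3.96 ± 2.71 CPM (SD, n = 3 each). Its log2 fold change of -1.17, with a standard error of 0.45, missed the threshold (edgeR adjusted p = 0.0682) but passed it with DESeq2 (adjusted p = 0.0254), with limma, with no filter on low counts, and without replicate 13 of *VC Phf6,RE9a*, where it was -1.87 (edgeR adjusted p = 0.00531). An antisense transcript, *BC051537*, overlaps *H2-Oa* and had 3, 1 and 5 counts against 32, 15 and 37 counts. *H2-Ob* (chr17:34238903-34245907), the beta chain of the inhibitor, had 165, 503 and 216 counts against 168, 198 and 171 counts, with replicate 2 of *WT Phf6,RE9a* far above all others. It had a log2 fold change of -0.87 with a standard error of 0.41 (edgeR adjusted p = 0.125), which became -0.18 without replicate 2 of *WT Phf6,RE9a* and passed the test, at -1.17 (edgeR adjusted p = 0.0483), without replicate 1 of *WT Phf6,RE9a*.

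For these other chains edgeR thus called 0 of 2 tested, beside 44.2% of all genes tested. At an unadjusted p under 0.05 it passed 1 of the 2, beside 7386 of the 14169 genes tested. The median log2 fold change of these chains was -1.02, beside 0.013 over all genes tested and 0.24 over the 7 members. *H2-DMb2*, the second beta chain of the editor, had 0, 1 and 5 counts against 12, 8 and 7 counts and was too low to be tested. Its *VC Phf6,RE9a* values all lay above its *WT Phf6,RE9a* values, as for 28.9% of all genes tested. With no filter on low counts the adjusted p of *H2-DMb2* from edgeR was 0.117. *H2-Eb2* had 2, 3 and 0 counts against 0, 2 and 0 counts, all at or under the limit of 3 counts.

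The class II region of chromosome 17 was read across 252.304 kb, from *H2-Oa* to *H2-Ea-ps* (chr17:34092340-34344643), which held 20 genes of the table, 13 of them tested. Of these edgeR called 0 higher and 2 lower, beside 21.5% higher and 22.7% lower over all genes tested. Also 0 were higher at an unadjusted p under 0.05, which 7386 of the 14169 genes tested passed in either direction. *Brd2*, a bromodomain protein that reads acetylated histones, fell from 894 ± 127 CPM to 511 ± 74.3 CPM (log2 fold change -0.81, edgeR adjusted p = 0.00365). *Psmb8*, a subunit of the immunoproteasome, which makes peptides for class I molecules, fell from 62.9 ± 8.14 CPM to 41.2 ± 3.90 CPM (SD, n = 3 each; log2 fold change -0.61, edgeR adjusted p = 0.00586). The other genes of class I peptide supply in the region did not pass the test, with log2 fold changes of -0.14 for *Psmb9*, -0.11 for *Tap1* and -0.27 for *Tap2*, the last at an adjusted p of 0.0765, and *Gm15821* had -0.33. The 3 chains and *H2-DMa*, at 0.15, had positive log2 fold changes, of which none passed the test. Every other tested gene of the region had a negative value.

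**Figure D3:**
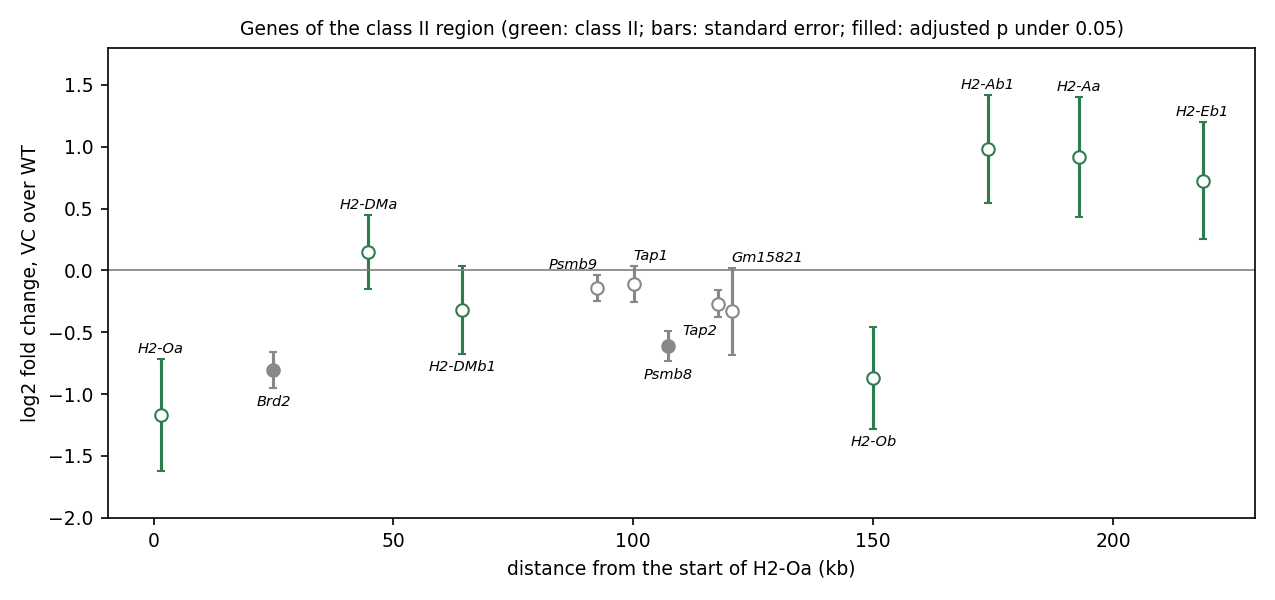
The log2 fold change, positive where *VC Phf6,RE9a* is higher, is plotted with its standard error for the 13 tested genes of the class II region against distance from the start of *H2-Oa* in kb. Class II genes are green, others grey, and filled points passed an adjusted p under 0.05 in edgeR, which were *Brd2* and *Psmb8*, both lower.

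Of 10 factors bound at class II promoters and cofactors tested, 3 rose, 2 fell and 5 did not pass, near the 44.2% called over all genes tested. The factors had a median log2 fold change of 0.11. Within the RFX complex, which binds the X box, *Rfxap* rose from 19.8 ± 1.59 CPM to 27.1 ± 1.74 CPM (log2 fold change 0.45, edgeR adjusted p = 0.0172) and *Rfxank* rose with 0.36 (edgeR adjusted p = 0.0459), while *Rfx5* fell by 0.40 on the log2 scale (edgeR adjusted p = 0.0419). *Rfxank* missed the threshold when any of the 6 libraries was left out (log2 fold change 0.32 to 0.41). *Rfx5* missed it without replicate 1, 11 or 12 (-0.50 to -0.31 over the 6 cases) and *Rfxap* without replicate 11 or 13 (0.38 to 0.50). Of the histone acetyltransferases, *Ep300* rose from 213 ± 10.4 CPM to 274 ± 12.8 CPM (edgeR adjusted p = 0.00944) and *Crebbp* fell from 126 ± 17.4 CPM to 92.7 ± 3.22 CPM (SD, n = 3 each; edgeR adjusted p = 0.0146), which *Crebbp* missed without replicate 11 (log2 fold change -0.56 to -0.38 over the 6 cases). *Nfya*, the subunit of NF-Y that contacts the Y box, had 182 ± 12.03 CPM and 208 ± 5.48 CPM (SD, n = 3 each) and did not pass the test.

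Of 13 regulators of *Ciita* tested, 3 rose, 3 fell and 7 did not pass, also near the 44.2% called over all genes tested, and their own median log2 fold change was 0.12. *Irf8* had 50, 58 and 114 counts in *WT Phf6,RE9a* and 360, 258 and 198 counts in *VC Phf6,RE9a* libraries, and this interferon regulatory factor of dendritic cells and monocytes rose with a log2 fold change at 1.77 (standard error 0.34, edgeR adjusted p = 0.00467). *Irf4*, which serves B cells, plasma cells and a subset of dendritic cells, had 13, 17 and 23 counts against 170, 170 and 64 counts and rose with a log2 fold change at 2.80 (standard error 0.44, edgeR adjusted p = 0.0019). Both passed whichever library was left out. In the interferon-gamma route the directions were mixed. The receptor chain *Ifngr1* rose (log2 fold change 1.24, edgeR adjusted p = 0.0370), but missed the threshold without replicate 1, 2, 11 or 12 (0.87 to 1.56 over the 6 cases with a library left out). The kinases fell, *Jak1* from 491 ± 27.4 CPM to 386 ± 24.5 CPM and *Jak2* from 271 ± 27.4 CPM to 194 ± 11.8 CPM (SD, n = 3 each; edgeR adjusted p = 0.0186 and 0.00618), *Jak1* missing the threshold without replicate 11 or 12 (log2 fold change -0.40 to -0.31 over the 6 cases). *Socs1*, an inhibitor of these kinases that interferon induces, fell from 56.1 ± 9.22 CPM to 19.4 ± 3.61 CPM (log2 fold change -1.53, edgeR adjusted p = 0.000422). The myeloid factor *Spi1* had 82.4 ± 10.4 CPM and 94.9 ± 10.2 CPM (SD, n = 3 each) and did not pass. *Ifng* itself, with at most 4 counts in a library, was too low to be tested.

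The endosomal proteases and the reductase that prepare peptides and cut the invariant chain had 5 genes that rose and 0 that fell of 11 tested, beside 21.5% higher and 22.7% lower over all genes tested, and the list had a median log2 fold change of 0.71. *Ctsf*, cathepsin F, had 58, 80 and 73 counts in *WT Phf6,RE9a* and 1655, 2112 and 1411 counts in *VC Phf6,RE9a* libraries. It rose from 4.54 ± 0.838 CPM to 102 ± 19.9 CPM (SD, n = 3 each), a log2 fold change of 4.48 with a standard error of 0.20 (edgeR adjusted p = 1.92e-05), and cathepsin F is known to cut the invariant chain in macrophages. *Lgmn*, the asparaginyl endopeptidase, rose from 2.40 ± 1.06 CPM to 13.02 ± 5.89 CPM (log2 fold change 2.44, edgeR adjusted p = 0.00283). *Ctse*, cathepsin E, rose from 63.7 ± 1.75 CPM to 94.6 ± 6.35 CPM (SD, n = 3 each; log2 fold change 0.57, edgeR adjusted p = 0.00133).

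*Ctss*, cathepsin S, which makes the last cut of the invariant chain in B cells and dendritic cells, had 62, 83 and 101 counts against 266, 144 and 139 counts and rose with a log2 fold change of 1.04 (edgeR adjusted p = 0.0301). *Ctsh* rose with 1.38 (edgeR adjusted p = 0.0384). *Ctss* missed the threshold without replicate 1, 2 or 11 (0.67 to 1.19 over the 6 cases with a library left out) and *Ctsh* without replicate 1, 2, 11 or 12 (0.87 to 1.64). The most abundant of the list did not pass: *Ctsd* had 375 ± 39.1 CPM and 315 ± 20.9 CPM, *Ctsb* 282 ± 20.3 CPM and 230 ± 23.3 CPM, and *Sppl2a*, the intramembrane protease that clears the last piece of the invariant chain, 122 ± 6.99 CPM and 136 ± 1.21 CPM (SD, n = 3 each). Of the genes with lower values, *Ctsb* and *Ctsd* had an unadjusted p under 0.05 in edgeR, and *Ctsb* passed with DESeq2 (adjusted p = 0.0243). DESeq2 and limma each called 1 gene of the list lower.

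**Figure D4:**
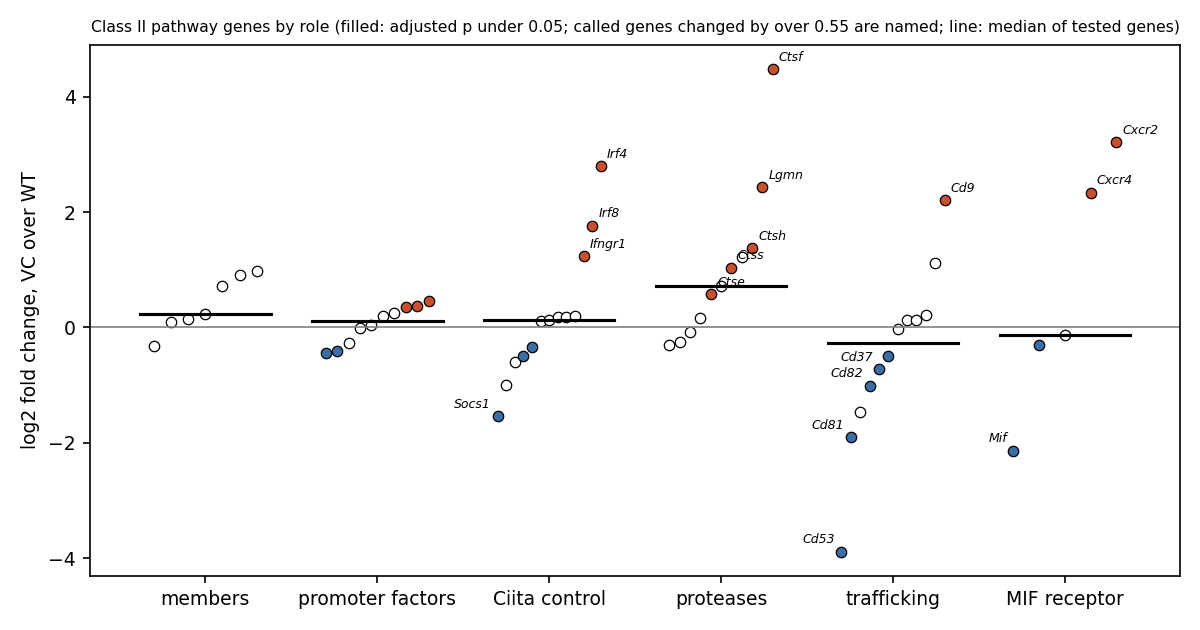
Each point is 1 tested gene of the class II pathway, placed by role along the x axis with its log2 fold change on the y axis, positive where *VC Phf6,RE9a* is higher. Filled points passed an adjusted p under 0.05 in edgeR, red higher and blue lower, and the line is the median of each role, which ran from -0.26 for trafficking to 0.71 for the proteases, where 5 genes rose and 0 fell.

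Genes of trafficking and surface control had 1 gene that rose and 5 that fell of 12 tested, beside 21.5% higher and 22.7% lower over all genes tested, and the list had a median log2 fold change of -0.26. Of those that fell, 4 were tetraspanins, membrane proteins that cluster class II molecules. *Cd53* had 3856, 3993 and 3456 counts in *WT Phf6,RE9a* and 395, 299 and 145 counts in *VC Phf6,RE9a* libraries and fell with a log2 fold change at -3.89 (standard error 0.33, edgeR adjusted p = 0.000126). *Cd81* fell from 234 ± 23.5 CPM to 62.3 ± 12.02 CPM, *Cd82* from 122 ± 12.1 CPM to 60.5 ± 3.38 CPM and *Cd37* from 169 ± 6.93 CPM to 103 ± 7.72 CPM (SD, n = 3 each), with log2 fold changes of -1.91, -1.01 and -0.72. *Rab7*, the late endosome GTPase, fell from 221 ± 22.8 CPM to 158 ± 2.31 CPM (SD, n = 3 each; edgeR adjusted p = 0.00491). The tetraspanin *Cd9* went the other way, with 15, 6 and 36 counts against 137, 120 and 27 counts, and rose with a log2 fold change of 2.21 (edgeR adjusted p = 0.0385), although its groups overlapped and it missed the threshold without replicate 1, 2, 11 or 12 (1.797 to 2.98 over the 6 cases with a library left out). *March8*, a ubiquitin ligase that removes class II molecules from the surface, had 208 ± 10.3 CPM and 227 ± 10.7 CPM (SD, n = 3 each) and did not pass.

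At the surface the invariant chain is also part of the receptor for the cytokine MIF. Of 5 genes of this receptor and its ligands, 2 rose and 2 fell, beside 44.2% called over all genes tested. The 5 genes had a median log2 fold change of -0.13. The ligand *Mif* had 2242, 2557 and 2132 counts in *WT Phf6,RE9a* and 576, 465 and 686 counts in *VC Phf6,RE9a* libraries and fell with a log2 fold change at -2.14 (standard error 0.17, edgeR adjusted p = 0.000107). The second ligand, *Ddt*, had 42 to 63 counts in each library and a log2 fold change of -0.13, and did not pass. Of the coreceptors, *Cd44* fell from 182 ± 16.1 CPM to 147 ± 8.33 CPM (edgeR adjusted p = 0.0317), but missed the threshold without replicate 1, 11, 12 or 13 (log2 fold change -0.35 to -0.24 over the 6 cases). *Cxcr4* rose from 3.69 ± 2.20 CPM to 18.8 ± 9.30 CPM (edgeR adjusted p = 0.00758) and *Cxcr2* rose from 1.55 ± 1.02 CPM to 14.5 ± 8.85 CPM (SD, n = 3 each; edgeR adjusted p = 0.00516). *Cd74* did not pass the test, as given above.

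Some markers of cells that normally carry class II molecules, and of T cells, moved between the groups. The part of such cells in the values above was not tested. Of 12 B cell markers 8 were tested, 7 of them rose and 0 fell, beside 21.5% higher and 22.7% lower over all genes tested, and the summed level of the list was 4.61 to 10.9 CPM in the *WT Phf6,RE9a* libraries, against 28.9 to 78.9 CPM in the *VC Phf6,RE9a* libraries. The tested marker that did not pass was *Cd22*, an inhibitory receptor of B cells, with 29, 68 and 39 counts against 31, 30 and 13 counts and a log2 fold change of -1.02 (edgeR adjusted p = 0.113). This gene and the following markers were picked after their values were seen. *Ighm* had 23, 31 and 115 counts against 770, 790 and 282 counts. *Ms4a1* had 0, 0 and 1 counts against 41, 19 and 8 counts, and *Fcer2a* had 0 counts in all 3 *WT Phf6,RE9a* libraries and in replicate 13 of *VC Phf6,RE9a*. The summed level in replicate 13 of *VC Phf6,RE9a*, 28.9 CPM, was well below the 78.6 and 78.9 CPM of replicates 11 and 12, while the summed chains differed less, at 16.5 CPM against 28.8 and 17.9 CPM.

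Of 12 dendritic cell markers 6 were tested, 2 rose and 0 fell, beside 21.5% higher and 22.7% lower over all genes tested. The summed level of the list was 18.0 to 30.1 CPM against 71.5 to 78.2 CPM. Most of the rise lay in *Zbtb46*, a transcription factor of classical dendritic cells, with 5, 18 and 23 counts against 646, 889 and 619 counts. *Xcr1*, *Clec9a*, *Batf3* and *Fscn1*, other markers of dendritic cells, had at most 8 counts in any library. Of 13 macrophage and monocyte markers 12 were tested, 5 rose and 0 fell, beside 21.5% higher and 22.7% lower over all genes tested. The summed level of the list was 40.6 to 56.7 CPM against 88.0 to 154 CPM. Much of that rise lay in *Ly6c2*, with 107, 138 and 272 counts against 1326, 875 and 518 counts. *Marco* was at 0 counts in all 3 *VC Phf6,RE9a* libraries and at 5, 4 and 1 counts in *WT Phf6,RE9a*. Of 10 T cell markers only *Lck* could be tested, which rose, as did 21.5% of all genes tested. The summed level of the list was 1.62 to 2.18 CPM against 7.13 to 10.3 CPM. Most of that rise lay in *Lck*, with 5, 8 and 16 counts against 95, 117 and 90 counts. The other 9 markers had at most 24 counts in a library. Of these 4 lists DESeq2 and limma called 0 genes lower as well, beside 3363 and 3115 of the 14169 genes tested. In edgeR 0 were lower at an unadjusted p under 0.05, which 7386 of all genes tested passed in either direction.

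**Figure D5:**
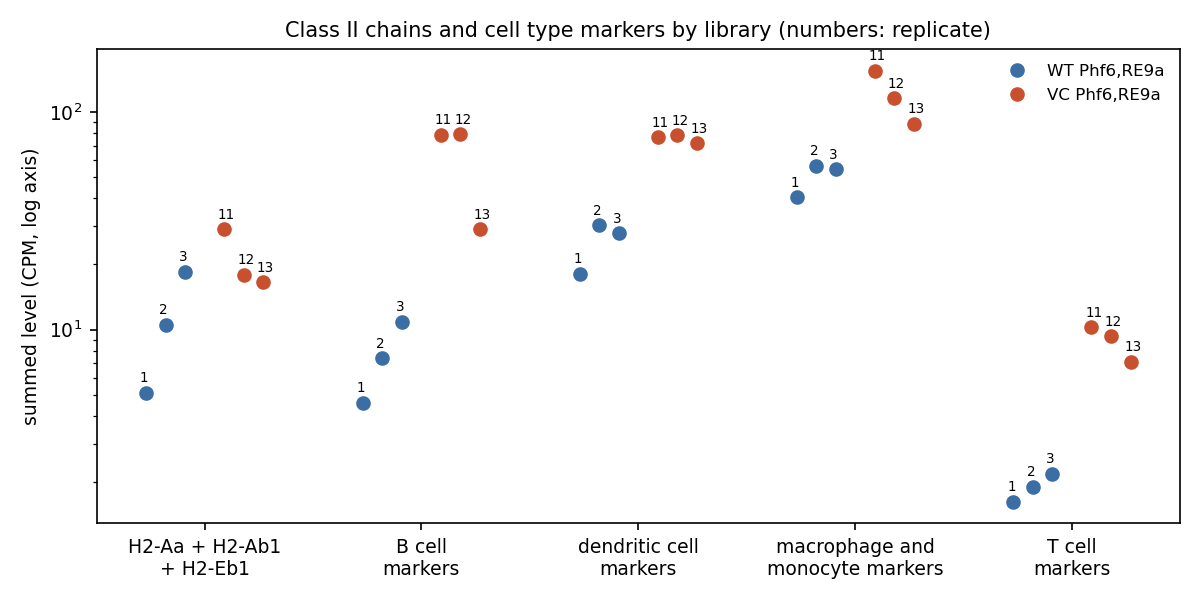
Summed levels in CPM (log axis) are plotted by library for the 3 chain genes and for 4 lists of cell type markers, blue for *WT Phf6,RE9a* and red for *VC Phf6,RE9a*, with the replicate number above each point. The groups are apart for each marker list, while the summed chains of replicate 3 of *WT Phf6,RE9a*, at 18.5 CPM, lie above replicates 12 and 13 of *VC Phf6,RE9a*, at 17.9 and 16.5 CPM.

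Genes with the pattern most like that of *Cd74*, by the root mean square difference of centred log2 CPM over the 6 libraries, were *Gm14401* at 0.13, *Gm3788* at 0.14 and *E2f7* at 0.16. *E2f7*, an E2F repressor of the cell cycle, had 412, 323 and 643 counts against 704, 585 and 506 counts, with replicate 3 high and replicate 2 low in *WT Phf6,RE9a* as for *Cd74*. Those nearest to *Ciita* were *Mtmr11* at 0.16, *Hlx* at 0.17 and *Gm31718* at 0.20. *Hlx*, a homeobox factor, had 50, 103 and 102 counts against 140, 124 and 40 counts, so that, as for *Ciita*, replicate 13 was the lowest of the *VC Phf6,RE9a* and replicate 1 the lowest of the *WT Phf6,RE9a* libraries. None of these 6 genes passed the test between the groups in edgeR.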

How the data were processed

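RNA-seq of 6 libraries was analysed from the authors' deposited table. The authors deposited counts of reads per Ensembl gene without normalization, and FPKM values that they computed from these counts with each gene's length and size factors between libraries. Columns of the authors' own comparison (mean normalized counts, fold changes, p-values) were not used. The submitters' processing notes name Bowtie 0.12.0 and the build mm8, while 54495 gene identifiers of the table occur in GENCODE M21 (GRCm38) and 98.3% of these have the same start and end, so the deposited coordinates were read as GRCm38. Only 3 of 12 class II genes looked up matched in both start and end. The counting tool and strandedness are not given in the sources used here.

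In R 4.3.3, counts were filtered (filterByExpr), scaled by TMM and tested over all genes with edgeR 4.0.16 (quasi-likelihood test, Benjamini-Hochberg, threshold 0.05, prior count 2 for log2 CPM). Alternatives were DESeq2 1.42.0, RLE size factors, no filter, a minimum of 10 counts in each library, limma 3.58.1 on log2(FPKM + 1) and log2(FPKM + 0.1), other thresholds, and each library left out. Ratios were tested in SciPy 1.17.1 and figures drawn with matplotlib 3.10.9.

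The class II genes and all lists were chosen with earlier results of these data known. Named genes are the members, all other class II chains, in each list the 3 highest by mean CPM and the 3 smallest p, the tested genes of the region, the tested neighbours of *Ciita*, and 3 genes of like pattern. Further called genes were named to complete a count after their values were seen.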

Additional observations from a re-analysis of the deposited data

How the results depend on the processing

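Of the 7 class II genes, 0 were called under each alternative except without replicate 3 of *WT Phf6,RE9a*, where 2 were called higher, so the number ran from 0 to 2 with a library left out. Signs changed for *H2-DMa* (-0.12) and *Cd74* (-0.016) without replicate 11 of *VC Phf6,RE9a*, and for *Ciita* without replicate 11 of *VC Phf6,RE9a* (-0.20) or replicate 1 of *WT Phf6,RE9a* (-0.17). With a library left out, log2 fold changes lay between -0.12 and 0.28 for *H2-DMa*, -0.016 and 0.48 for *Cd74* and -0.20 and 0.42 for *Ciita*, and the log2 difference in ratio ran from -0.28 to 0.17 for *H2-Aa* over *H2-Ab1* and from -0.34 to 0.088 for *H2-DMa* over *Cd74*. *Phf6* passed in 12 of 12 alternatives (log2 fold change -1.76 to -1.39). At an adjusted p under 0.01, 1690 genes were called higher and 2110 lower. With at least a 2-fold change and an adjusted p under 0.05, 1410 were called higher and 1625 lower. DESeq2 called 1 other class II chain lower (*H2-Oa*), and DESeq2 and RLE size factors each called 1 protease lower. With a library left out, genes called lower ran from 0 to 1 for the other chains, 0 to 3 for promoter factors, 0 to 1 for proteases and 1 to 2 for the MIF receptor, and genes called higher from 1 to 3 for promoter factors, 3 to 6 for proteases and 0 to 2 for trafficking. The cause was not tested. No paired analysis was possible because the labels number the libraries 1 to 3 in *WT Phf6,RE9a* and 11 to 13 in *VC Phf6,RE9a*. Genes with under 3 counts in a library, such as *H2-Eb2*, could not be compared at this depth.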

Other observations

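The nearest tested genes on each side of *Ciita* on chromosome 16 differed from each other. *Tvp23a* (chr16:10420557-10447362), a Golgi membrane protein, had 14, 19 and 27 counts in *WT Phf6,RE9a* and 33, 18 and 19 counts in *VC Phf6,RE9a* libraries, a log2 fold change of 0.10 with a standard error of 0.38 (edgeR adjusted p = 0.850). *Clec16a* (chr16:10545339-10744878), a regulator of mitophagy, had 1163, 1105 and 1107 counts against 756, 798 and 864 counts, and fell from 72.5 ± 4.76 CPM to 47.5 ± 3.46 CPM (SD, n = 3 each), a log2 fold change of -0.61 with a standard error of 0.095 (edgeR adjusted p = 0.0018). It passed the test whichever library was left out, while *Ciita*, between them, did not pass in any of the 12 alternatives.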
